A study of Mus musculus with 39 samples.

Results

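Bach1 is a transcription factor that holds a set of heme, iron and redox genes down, and 10 of its known mouse targets are described here in the hippocampus and the basolateral amygdala (BLA) of APP/Tau mice and controls. The 10 are Hmox1, Fth1, Ftl1 and Slc40a1 of heme and iron handling, Slc7a11, Gclc and Gclm of glutathione synthesis, and Nqo1, Txnrd1 and Srxn1 of redox repair. They were chosen as targets that Bach1 represses, because Bach1 mRNA itself is lower in APP/Tau mice. All 10 were found by symbol among the 50559 genes of each count table, and all 10 passed the filter on low counts in both tissues, with 25791 genes in the hippocampus and 23168 in the BLA.

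Bach1 pairs with small Maf proteins and sits on antioxidant response elements in the promoters and enhancers of its targets. Heme binds Bach1 and releases it from DNA, after which NRF2, the product of Nfe2l2, can occupy the same elements and switch the genes on. In the brain these genes are expressed in several cell types, and Hmox1 is known to be induced in microglia, astrocytes and macrophages under oxidative load.

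APP/Tau mice carry both transgenes of a cross on C57BL/6, the J9 line (APPSw,Ind, a mutant human APP) and the PS19 line (P301S mutant human Tau), and controls carry neither. Every mouse, controls included, also carries CaMKIIα-Cre, which acts in glutamatergic neurons of the forebrain after birth, and RiboTag, a ribosomal protein tagged where Cre is active. The libraries are the input fraction, the cleared lysate before any pull-down, so all cell types of the tissue contribute and the neuronal tag selects nothing here. All animals were female and 9 months old. Trained mice went through cued fear conditioning, a tone that ended with a foot shock, and were killed 1 hour after the shock, whereas naive mice were not conditioned. The hippocampus is represented by 4 trained and 5 naive APP/Tau libraries and by 6 trained and 5 naive control libraries. The BLA, taken as 4 punches per mouse, is represented by 4 trained and 5 naive APP/Tau libraries and by 5 trained and 5 naive control libraries. Total counts ran from about 92122800 to 128254000 per hippocampal library and from 50301300 to 74293500 per BLA library. The labels name no animal for a library, so p-values measure the spread between these samples.

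Some libraries stood apart. A microglial score, the mean log2 level of 14 microglial marker genes, ran from 4.94 to 6.85 in hippocampal APP/Tau libraries (median 5.59) and from 4.62 to 4.86 in controls (median 4.69). In 3 APP/Tau libraries the score was over 6 (trained replicate 1 at 6.50, trained replicate 3 at 6.40 and naive replicate 5 at 6.85), and the other 6 lay between 4.94 and 5.66. In 3 hippocampal control libraries the 18S ribosomal RNA gene took over 3 times its median share of counts, which was 0.0912% over hippocampal libraries. Its share was 5.18% in naive replicate 1, 1.99% in trained replicate 1 and 0.286% in trained replicate 3. The last of these was close to the next library, APP/Tau naive replicate 4, at 0.242%. In BLA libraries, markers of striatum and central amygdala, which border the punched area, summed to between 847 and 4650 CPM (read counts scaled to a common library total) in APP/Tau mice and between 485 and 4119 CPM in controls.

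Of the 10 genes, 7 had promoter windows in RefSeq (mouse build GRCm38.p6), 10 windows in all. Hmox1, Gclc and Slc40a1 were not in that table. The 250 bases before each start were searched on both strands for TGACNNNGC, the core of the antioxidant response element, and for TGAGTCA, the TPA response element, which Maf and AP-1 proteins bind. Matches were present in Gclm, Srxn1 and 1 of 3 Txnrd1 windows, and none in Fth1, Ftl1, Slc7a11, Nqo1 or Bach1 itself. Over 32851 promoters, 10.2% held the first motif, 4.46% the second and 13.9% either, so these matches are a description of sequence and not of binding. The 3 windows are shown 5′ to 3′ on the strand of the gene because they hold these matches, which are in capitals. Gclm (chr3:122245307-122245556, plus strand) holds the core on the opposite strand, 134 to 126 bases before the start. Txnrd1 (chr10:82858956-82859205, plus strand) holds it on the opposite strand, 92 to 84 bases before the start. Srxn1 (chr2:152105274-152105523, plus strand) holds TGAGTCA at 2 places, 102 to 96 and 45 to 39 bases before the start.
Gclm: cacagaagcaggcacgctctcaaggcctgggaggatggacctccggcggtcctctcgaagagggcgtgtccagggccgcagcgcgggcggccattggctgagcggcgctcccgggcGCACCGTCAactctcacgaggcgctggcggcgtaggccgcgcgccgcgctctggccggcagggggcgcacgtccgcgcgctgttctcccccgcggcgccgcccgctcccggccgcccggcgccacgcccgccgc
Txnrd1: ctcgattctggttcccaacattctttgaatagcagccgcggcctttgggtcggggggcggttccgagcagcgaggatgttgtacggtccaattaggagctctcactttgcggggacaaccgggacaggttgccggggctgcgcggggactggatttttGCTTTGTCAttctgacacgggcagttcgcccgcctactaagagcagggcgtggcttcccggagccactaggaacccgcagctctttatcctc
Srxn1: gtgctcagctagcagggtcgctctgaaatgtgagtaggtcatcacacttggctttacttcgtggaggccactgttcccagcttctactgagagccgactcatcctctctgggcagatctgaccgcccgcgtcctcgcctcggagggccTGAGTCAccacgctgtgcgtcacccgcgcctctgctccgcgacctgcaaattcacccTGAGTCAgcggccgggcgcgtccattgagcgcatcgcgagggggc

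Bach1 itself, whose lower mRNA was the reason for choosing these targets and is given without a test, stood apart by genotype in every library. In the hippocampus Bach1 ranged from 7.49 to 12.96 CPM in 9 APP/Tau libraries (median 8.98) and from 13.9 to 16.5 CPM in 11 controls (median 16.01), a ratio of 0.62. In the BLA it ranged from 6.78 to 9.34 CPM in 9 APP/Tau libraries (median 7.69) and from 11.7 to 15.5 CPM in 10 controls (median 14.6), a ratio of 0.55. No APP/Tau library reached the lowest control in either tissue. Bach1 was not alone on its stretch of chromosome 16. Of the 10 tested protein-coding genes on each side, 7 of 20 were lower in the hippocampus of APP/Tau mice and 1 higher, and 6 of 20 were lower in the BLA and 1 higher. Among them were Cct8, a chaperonin subunit (log2 fold change -0.99 in the hippocampus and -1.05 in the BLA), Usp16, a deubiquitinase (-0.90 and -0.97), and Ltn1, a ubiquitin ligase of stalled ribosomes (-1.12 and -1.15). The 1 higher gene was App in the hippocampus (0.45 ± 0.04), the mouse counterpart of the human APP transgene, and Adamts1 in the BLA (0.68 ± 0.14). Of all tested genes 11.1% changed in either direction in the hippocampus and 1.18% in the BLA.

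In the hippocampus, 7 of the 10 target genes were higher in APP/Tau mice than in controls when naive and trained mice were averaged, and none was lower. Hmox1 was 3.09-fold higher, while the other 6 (Fth1, Slc40a1, Slc7a11, Gclc, Gclm and Nqo1) were 1.09-fold to 1.38-fold higher. A gene was counted as higher or lower at an adjusted p under 0.05 in edgeR's quasi-likelihood test over all tested genes. By that rule 11.1% of all tested genes changed and 7.27% were higher, so 7 of 10 lies above the background. All 10 genes had a positive log2 fold change, against 49.7% of all tested genes, and their median was 0.29 against -0.001 for all genes. In bulk tissue, more cells of a type and more RNA per cell cannot be told apart.

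**Figure D1:**
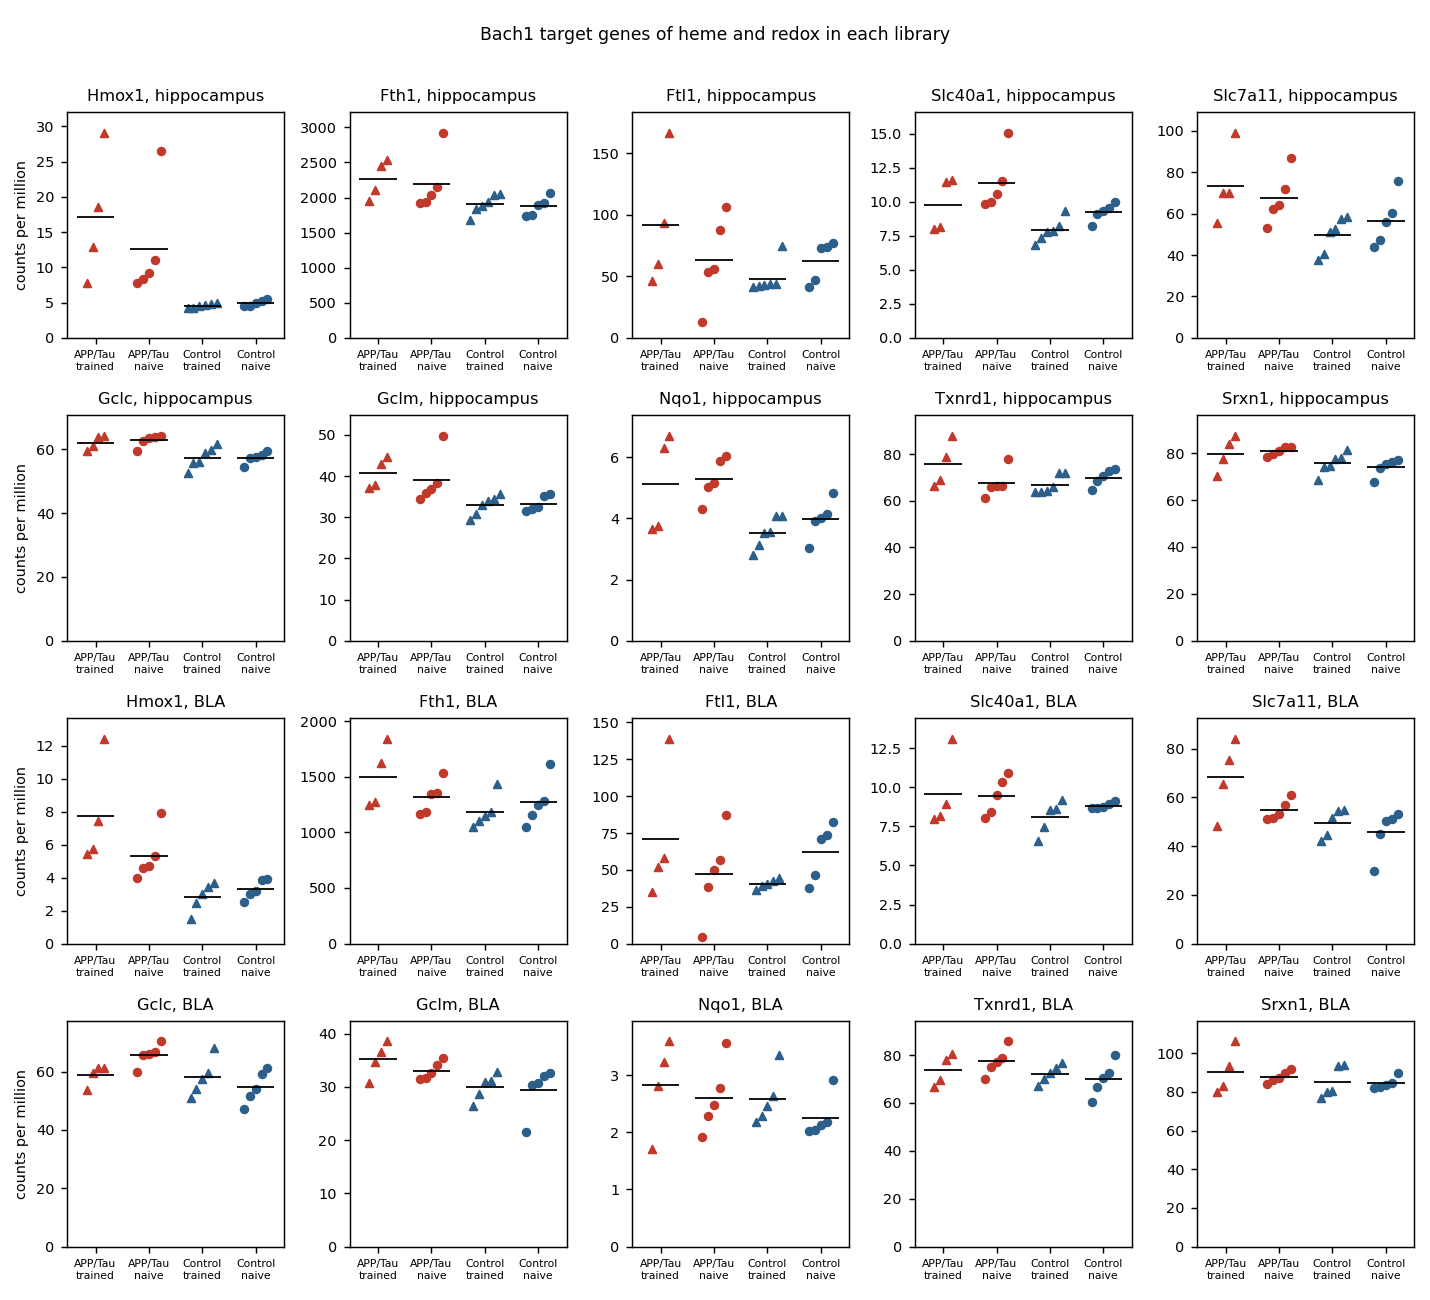
Level of each of the 10 target genes in CPM (y axis, from 0) in every library, by genotype and training (x axis), with hippocampus in the upper 2 lines of panels and BLA in the lower 2; circles are naive mice, triangles trained mice, red APP/Tau, blue Control, and bars are group means. All 9 APP/Tau libraries lie above all controls for Hmox1 in both tissues, whereas for every other gene shown the genotypes overlap. The share of all tested genes without overlap between the genotypes was not counted.

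Hmox1 encodes heme oxygenase 1, which splits heme into biliverdin, iron and carbon monoxide. Its level in the hippocampus ran from 7.78 to 29.1 CPM in APP/Tau mice (median 10.98) and from 4.17 to 5.48 CPM in controls (median 4.63). Thus the lowest APP/Tau library was above the highest control, and APP/Tau libraries spread widely, with 3 of them at 18.5, 26.5 and 29.1 CPM, the same 3 that had a microglial score over 6. The mean was 14.6 ± 8.25 CPM in 9 APP/Tau libraries and 4.73 ± 0.395 CPM in 11 controls (SD). The log2 fold change was 1.63 ± 0.22 (standard error, 95% interval 1.20 to 2.05, edgeR adjusted p = 0.00021). Whether a lack of overlap is unusual among all tested hippocampal genes is not known, because such genes were not counted.

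Fth1 and Ftl1 encode the heavy and light chains of ferritin, the iron storage shell. Fth1 ranged from 1921 to 2924 CPM in APP/Tau hippocampi (median 2101) and from 1683 to 2071 CPM in controls (median 1897), with a log2 fold change of 0.24 ± 0.07 (edgeR adjusted p = 0.0411). The ranges overlapped, with 5 of 9 APP/Tau libraries above every control. Ftl1 ranged from 12.9 to 166 CPM in APP/Tau mice (median 60.2) and from 41.1 to 77.2 CPM in controls (median 43.9), with a log2 fold change of 0.47 ± 0.28 (edgeR adjusted p = 0.275). APP/Tau libraries thus held both the highest and the lowest Ftl1 values, 4 of 9 above every control and 1 below every control. Slc40a1 encodes ferroportin, the iron exporter. Its level was 7.97 to 15.1 CPM in APP/Tau mice (median 10.5) and 6.81 to 9.98 CPM in controls (median 8.22), with a log2 fold change of 0.31 ± 0.09 (edgeR adjusted p = 0.0358) and 5 of 9 APP/Tau libraries above every control.

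Of the glutathione genes, Slc7a11 encodes the cystine carrier of system xc-, and Gclc and Gclm encode the catalytic and modifier subunits of glutamate-cysteine ligase, the first step of glutathione synthesis. Slc7a11 was 52.9 to 99.1 CPM in APP/Tau hippocampi (median 69.7) and 37.7 to 75.6 CPM in controls (median 52.8), a log2 fold change of 0.41 ± 0.12 (edgeR adjusted p = 0.0332). Its ranges overlapped broadly, with 2 of 9 APP/Tau libraries above every control. Gclm was 34.4 to 49.8 CPM in APP/Tau mice (median 37.7) and 29.3 to 35.7 CPM in controls (median 33.0), a log2 fold change of 0.27 ± 0.06 (edgeR adjusted p = 0.0104). All but 1 of the 9 APP/Tau libraries exceeded every control for Gclm. Gclc changed least among the 7 that rose, with 59.4 to 64.3 CPM in APP/Tau mice (median 63.7) and 52.5 to 61.6 CPM in controls (median 57.6), a log2 fold change of 0.12 ± 0.03 (edgeR adjusted p = 0.0238). It was also the steadiest, with a coefficient of variation of 3.17% over APP/Tau libraries and 4.57% over controls, against 56.6% and 8.34% for Hmox1.

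Among the redox enzymes, Nqo1 encodes a quinone reductase. Its level was 3.66 to 6.70 CPM in APP/Tau hippocampi (median 5.14) and 2.80 to 4.82 CPM in controls (median 3.93), a log2 fold change of 0.47 ± 0.12 (edgeR adjusted p = 0.0198), with 6 of 9 APP/Tau libraries above every control. Txnrd1, cytosolic thioredoxin reductase, was 61.2 to 87.9 CPM in APP/Tau mice (median 66.4) and 63.6 to 73.4 CPM in controls (median 68.6), a log2 fold change of 0.06 ± 0.05 (95% interval -0.04 to 0.17, edgeR adjusted p = 0.458). Its median was lower and its mean higher in APP/Tau mice, and the genotypes overlapped in both directions. Srxn1, sulfiredoxin, which repairs overoxidised peroxiredoxins, was 70.3 to 87.5 CPM in APP/Tau mice (median 80.8) and 67.9 to 81.3 CPM in controls (median 75.4), a log2 fold change of 0.10 ± 0.04 (95% interval 0.02 to 0.18, edgeR adjusted p = 0.104).

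Several hippocampal calls near the threshold were lost when libraries were left out. Without the 3 APP/Tau libraries with a microglial score over 6, 1 of the 10 genes was called, Hmox1, at 1.03 ± 0.10 (edgeR adjusted p = 5.6e-06), and Fth1 was at 0.09 ± 0.05, Slc40a1 at 0.10 ± 0.07, Slc7a11 at 0.24 ± 0.12, Gclm at 0.15 ± 0.05 and Nqo1 at 0.21 ± 0.11. Gclc was at 0.11 ± 0.04 there, close to its 0.12 over all libraries (edgeR adjusted p = 0.246). Leaving out single libraries gave 2 called genes without APP/Tau trained replicate 3, 3 without APP/Tau trained replicate 1, and 4 without APP/Tau naive replicate 5 or Control naive replicate 3. Hmox1 and Gclm were called in all 20 such fits, Gclc in 19, Nqo1 in 18, Slc7a11 in 12, Slc40a1 in 10 and Fth1 in 8. Log2 fold changes over these fits ran from 1.39 to 1.76 for Hmox1, 0.22 to 0.30 for Gclm, 0.11 to 0.14 for Gclc, 0.40 to 0.54 for Nqo1, 0.33 to 0.48 for Slc7a11, 0.25 to 0.36 for Slc40a1 and 0.18 to 0.28 for Fth1. Without the 3 control libraries rich in 18S RNA, 3 genes were called (Hmox1, Gclc and Gclm). Calls over all genes also fell without those 3 libraries, and their number in the other fits of this paragraph is not given here. A lower count of target genes is thus not shown to be particular to these targets.

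Glial markers moved with the same libraries. In the hippocampus 13 of 14 microglial markers were called higher in APP/Tau mice, and their summed level was 580 to 2215 CPM in APP/Tau mice (median 913) and 462 to 546 CPM in controls (median 483). Called higher as well were 8 of 10 astrocyte markers, 6 of 10 oligodendrocyte markers, 5 of 8 endothelial markers and 3 of 6 markers of perivascular macrophages. Summed astrocyte markers reached 4443 to 10565 CPM in APP/Tau mice and 4125 to 4654 CPM in controls, and summed oligodendrocyte markers 5395 to 10562 CPM in APP/Tau mice and 4338 to 6967 CPM in controls. Gfap, the astrocyte filament gene, had a log2 fold change of 2.48 ± 0.31 in the hippocampus and 3.12 ± 0.54 in the BLA (edgeR adjusted p = 9.97e-05 and 0.0128). None of 8 neuronal markers was called higher and 1 (Map2) was lower. No choroid plexus, meningeal or blood marker was called. Choroid plexus markers still had a median log2 fold change of 0.54, summing to 267 to 1489 CPM in APP/Tau mice (median 677) and 227 to 1038 CPM in controls (median 453). Of the other lists, 1 of 10 markers of striatum and central amygdala was higher and 1 lower, and no marker of any list was at 0 in all libraries. With the microglial score as a covariate, which also separates the genotypes, no target gene was called, of 15 called over all genes, and Hmox1 was at 0.36 ± 0.11 (edgeR adjusted p = 0.320), with 3 of the 10 at an unadjusted p under 0.05. What part the cell mix has in the higher target levels was not tested beyond these fits.

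In the BLA, Hmox1 alone of the 10 genes was called, 2.11-fold higher in APP/Tau mice. Across all tested BLA genes 1.18% changed and 0.997% were higher. Hmox1 was 3.98 to 12.4 CPM in APP/Tau mice (median 5.45) and 1.49 to 3.93 CPM in controls (median 3.11), a log2 fold change of 1.08 ± 0.19 (95% interval 0.71 to 1.44, edgeR adjusted p = 0.0125). Again every APP/Tau library lay above every control, and how many of all tested BLA genes did so was not counted. The other 9 genes had log2 fold changes between 0.07 (Srxn1) and 0.36 (Slc7a11), all positive, against 51.6% positive over all genes, and the median of the 10 was 0.18 against 0.01 over all genes.

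Slc7a11 came next in the BLA, with 48.1 to 84.1 CPM in APP/Tau mice (median 56.9) and 29.9 to 54.9 CPM in controls (median 50.6). Its log2 fold change was 0.36 ± 0.11 (edgeR adjusted p = 0.0823), and 5 of 9 APP/Tau libraries were above every control. Gclm ran from 30.8 to 38.5 CPM in APP/Tau mice (median 34.1) and from 21.6 to 32.7 CPM in controls (median 30.9), a log2 fold change of 0.20 ± 0.07 (edgeR adjusted p = 0.139), also with 5 of 9 above every control. The ferritin genes and ferroportin overlapped between genotypes: Fth1 gave 0.19 ± 0.09, Ftl1 0.21 ± 0.34 and Slc40a1 0.17 ± 0.09 (edgeR adjusted p = 0.258, 0.778 and 0.345). For Gclc the log2 fold change was 0.14 ± 0.06, for Nqo1 0.17 ± 0.15, for Txnrd1 0.09 ± 0.06 and for Srxn1 0.07 ± 0.06 (edgeR adjusted p = 0.202, 0.565, 0.410 and 0.504).

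Glial markers were higher in the BLA too. There 9 of 14 microglial markers were called higher, with summed levels of 522 to 1374 CPM in APP/Tau mice (median 729) and 459 to 587 CPM in controls (median 506), as were 2 of 10 astrocyte and 2 of 10 oligodendrocyte markers. No endothelial, perivascular, choroid plexus, meningeal, blood or striatal marker passed edgeR's threshold (unadjusted p under 0.05 for 3 of 8 endothelial and 6 of 7 meningeal markers and none of the rest), and 1 of 8 neuronal markers (Nefl) was lower. With the microglial score as a covariate Hmox1 was at 0.63 ± 0.22 in the BLA and no target gene was called, of 11 over all genes. With the striatal and central amygdala markers as a covariate Hmox1 stayed called at 1.08 ± 0.21 (edgeR adjusted p = 0.0430).

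**Figure D2:**
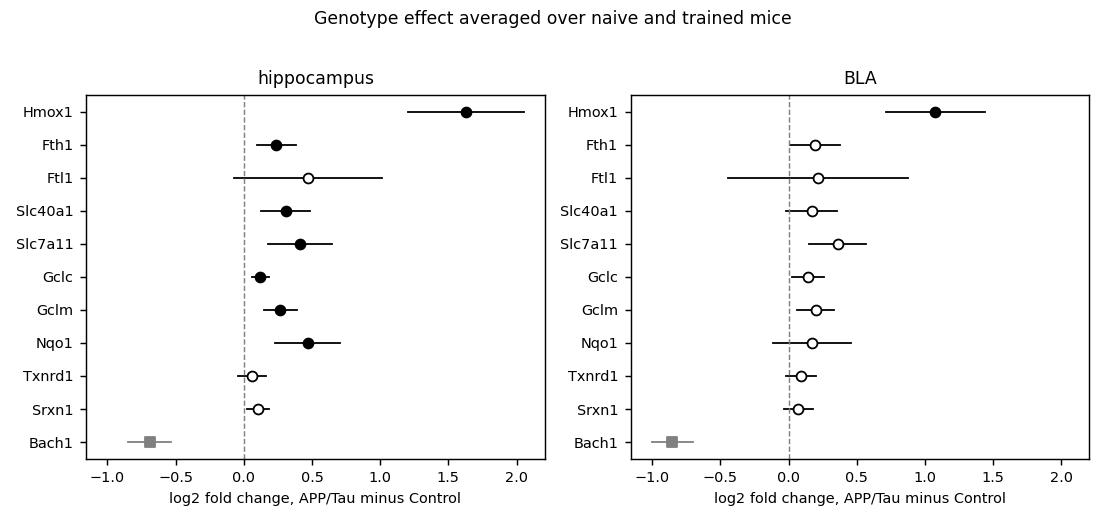
Log2 fold change, APP/Tau minus Control, averaged over naive and trained mice (x axis) for each target gene and Bach1 (y axis), hippocampus left and BLA right, with 95% intervals as lines; filled circles passed the adjusted p threshold of 0.05, open circles did not, and the grey square marks Bach1, which the choice of genes rests on. Hmox1 lies at 1.63 in the hippocampus and 1.08 in the BLA, the other 9 targets between 0.06 and 0.47.

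The hippocampal effects were not shown to differ from those in the BLA. In a fit over all 39 libraries, 0 of the 10 genes had a called difference between the tissues (edgeR), 0 had an unadjusted p under 0.05, and 0.0262% of all tested genes were called. The largest difference, for Hmox1, was 0.57 ± 0.30 (hippocampus minus BLA, 95% interval -0.02 to 1.15, edgeR adjusted p = 0.630). For Nqo1 it was 0.31 ± 0.19 (95% interval -0.06 to 0.69). For Gclc, Txnrd1 and Srxn1 the 95% intervals of the difference lay between -0.17 and 0.18. This fit treated all libraries as independent, so its standard errors and intervals leave out any pairing between the tissues. Deviations of libraries with the same number in the descriptions of both tissues correlated at 0.27 on average.

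Split by training, Hmox1 in the hippocampus of trained mice was the 1 call among the 10 genes in the 4 comparisons of genotypes. In trained mice the hippocampus had 29.1, 7.82, 18.5 and 12.9 CPM of Hmox1 in 4 APP/Tau libraries and 4.17 to 4.92 CPM in 6 controls (median 4.59). The groups did not overlap, the log2 fold change was 1.91 ± 0.30 (edgeR adjusted p = 0.00337), and Hmox1 was the single gene of the 10 called, of 2.8% over all genes, with 9 of the 10 at an unadjusted p under 0.05 (20.3% of all genes). In naive mice it was 10.98, 9.24, 8.37, 7.78 and 26.5 CPM in 5 APP/Tau libraries and 4.48, 5.48, 4.58, 5.27 and 4.90 CPM in 5 controls. These groups did not overlap either, with a log2 fold change of 1.35 ± 0.31 (edgeR adjusted p = 0.0715), and 0 of the 10 genes were called by edgeR, of 0.202% over all genes, although 7 had an unadjusted p under 0.05 (15.2% of all genes) and DESeq2 called Hmox1. Gclm in trained mice (0.31 ± 0.09) and Gclc (0.13 ± 0.05) and Srxn1 (0.13 ± 0.06) in naive mice also lay higher without overlap. They were not called either (edgeR adjusted p = 0.0638, 0.187 and 0.296). How many of all tested genes lacked overlap in any of the 4 comparisons was not counted.

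In the BLA of trained mice Hmox1 was 12.4, 5.45, 7.44 and 5.72 CPM in 4 APP/Tau libraries and 3.64, 3.03, 3.45, 1.49 and 2.45 CPM in 5 controls. The log2 fold change was 1.46 ± 0.27 without overlap (edgeR adjusted p = 0.0516), and 0 of the 10 genes were called by edgeR, of 0.0432% over all genes, with 4 at an unadjusted p under 0.05 (10.3% of all genes) and Hmox1 called by DESeq2. In naive mice Hmox1 was 5.29, 3.98, 4.72, 4.58 and 7.94 CPM in 5 APP/Tau libraries and 3.88, 2.50, 3.93, 2.98 and 3.19 CPM in 5 controls. The lowest APP/Tau value, 3.98, lay just above the highest control, 3.93, and the log2 fold change was 0.69 ± 0.25 (edgeR adjusted p = 0.296). Again 0 of the 10 genes were called by edgeR or DESeq2 in naive mice, of 0.0388% over all genes by edgeR, with 2 at an unadjusted p under 0.05 (13.2% of all genes), Hmox1 and Gclc (0.27 ± 0.08, edgeR adjusted p = 0.263).

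Fear conditioning left the target genes without a called change. In APP/Tau mice and in controls of both tissues, 0 of the 10 genes were called for trained against naive mice, by edgeR or DESeq2, and the edgeR share of all genes was 0% in each of these comparisons. Unadjusted p was under 0.05 for 0 of the 10 genes in controls of either tissue and in the BLA of APP/Tau mice. For 1 gene in the APP/Tau hippocampus it was under 0.05, against 4.59% of all genes. In the APP/Tau hippocampus Hmox1 averaged 17.1 CPM in trained and 12.6 CPM in naive mice (log2 fold change 0.44 ± 0.32), and in controls 4.55 CPM in trained and 4.94 CPM in naive mice (-0.12 ± 0.29). That gene was Txnrd1, at 75.6 CPM in trained and 67.5 CPM in naive hippocampi (0.16 ± 0.08, edgeR adjusted p = 0.986). The interaction of genotype and training was also called for 0 of the 10 genes and for 0% of all genes in both tissues. Unadjusted p was under 0.05 for Txnrd1 in the hippocampus (0.23 ± 0.10) and for Hmox1 in the BLA (0.78 ± 0.37). Of all genes 3.90% in the hippocampus and 3.86% in the BLA had such a p.

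Within groups of the hippocampus, 5 of the 10 target genes were higher in libraries with more Bach1, and none was called in the BLA. The slope of each gene on Bach1 was fitted beside the 4 group means, so the genotype difference does not enter it. All 10 hippocampal slopes were positive, against 48.7% of all tested genes. The 5 calls compare with 19% of all tested genes in either direction and 9.55% with a positive slope. Per log2 unit of Bach1, Hmox1 rose by 2.20 ± 0.36 log2 units (edgeR adjusted p = 0.000338), Slc40a1 by 0.85 ± 0.20, Fth1 by 0.69 ± 0.15, Gclm by 0.47 ± 0.15 and Txnrd1 by 0.44 ± 0.12. Gclc was at 0.12 ± 0.09 and Srxn1 at 0.02 ± 0.12. Fitted in APP/Tau libraries alone 6 genes were called, and in controls alone 0 (edgeR, of 5 over all genes, with 0 of the 10 at an unadjusted p under 0.05). The number called over all genes in the APP/Tau fit is not given here, so the 6 have no background beside them. The coefficient of variation of Bach1 was 18.8% in APP/Tau libraries and 6.02% in controls, control slopes were positive for 8 of the 10 genes, and the difference between genotypes was not tested. Without APP/Tau naive replicate 5 only Hmox1 was called, and calls over all genes in that fit are not given here either. In the BLA 0 of the 10 genes were called by edgeR, of 0.00863% over all genes, with 2 at an unadjusted p under 0.05 (6.58% of all genes), and DESeq2 called Hmox1. BLA slopes were positive for 8 genes and negative for Fth1 (-0.14 ± 0.34) and Srxn1 (-0.14 ± 0.20), with 51.6% positive over all genes.

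On the microglial score, fitted in the same way in the hippocampus, 7 genes were called, all with positive slopes. Of all tested genes 24.2% were called in either direction and 11.9% with a positive slope. Per unit of score Hmox1 rose by 1.05 ± 0.08 log2 units (edgeR adjusted p = 4.0e-09), Ftl1 by 0.96 ± 0.26, Slc7a11 by 0.33 ± 0.12, Slc40a1 by 0.33 ± 0.07, Fth1 by 0.30 ± 0.05, Gclm by 0.25 ± 0.05 and Txnrd1 by 0.19 ± 0.04. Gclc did not follow the score (0.00 ± 0.04) and Srxn1 was at 0.04 ± 0.05. Bach1 rose with the score as well, by 0.28 ± 0.07 (edgeR adjusted p = 0.0049), so the slopes on Bach1 and on the score share libraries and cannot be told apart. In controls alone 0 genes were called by edgeR on the score, of 0 over all genes, with 0 of the 10 at an unadjusted p under 0.05. Without APP/Tau naive replicate 5, 3 genes were called (Hmox1, Fth1 and Ftl1), with the number over all genes not given here. In the BLA 0 of the 10 genes were called by edgeR or DESeq2, of 2.08% over all genes by edgeR, with 5 at an unadjusted p under 0.05 (14.4% of all genes) and Hmox1 at 0.70 ± 0.26.

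**Figure D3:**
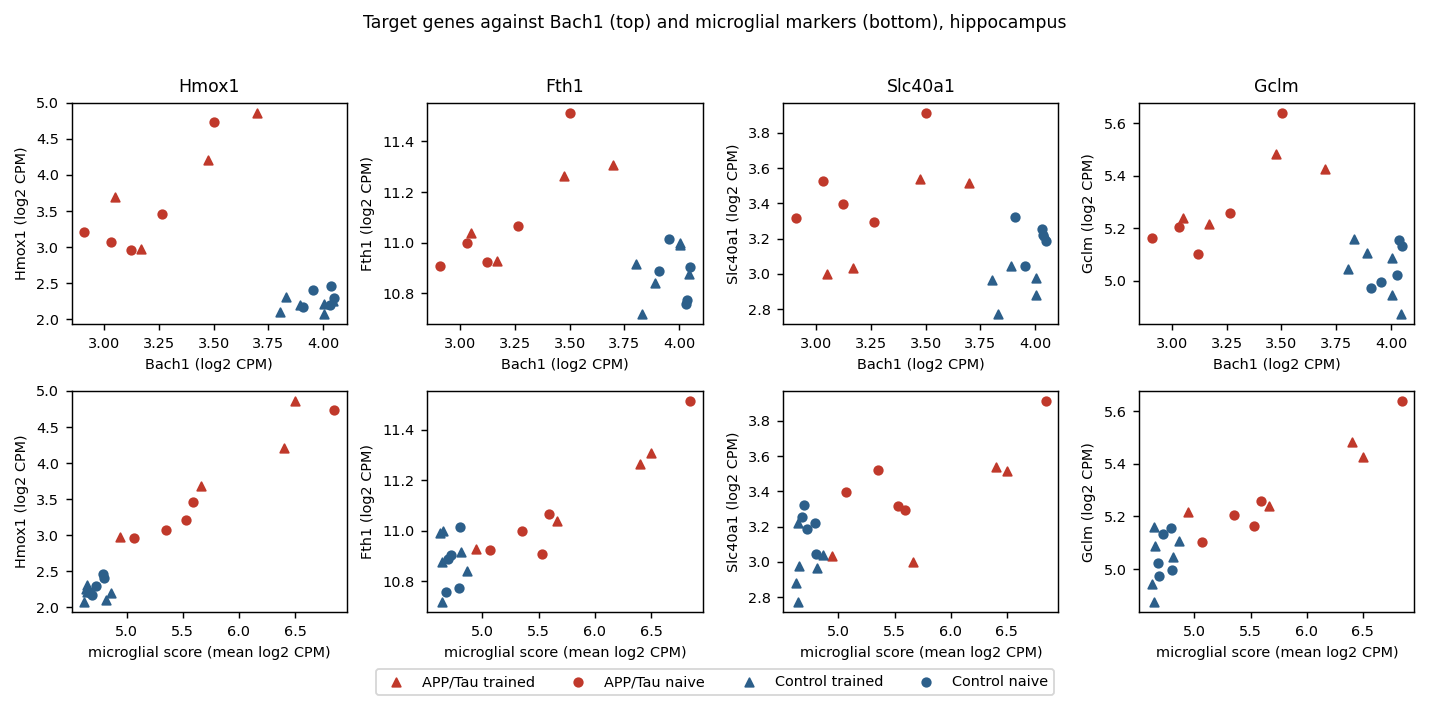
Hmox1, Fth1, Slc40a1 and Gclm in 20 hippocampal libraries (y axes, log2 CPM) against Bach1 (upper panels, x axis in log2 CPM) and against the microglial score (lower panels, x axis as mean log2 CPM of 14 markers); red is APP/Tau, blue Control, triangles trained, circles naive. APP/Tau libraries lie left of all controls on the Bach1 axis, and within them the 3 with the highest microglial scores have the 3 highest Hmox1, Fth1 and Gclm levels.

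Across the 9 hippocampal APP/Tau libraries alone, Hmox1 followed the microglial score with Pearson r = 0.964 and Spearman rho = 0.967 (exact permutation, adjusted p = 0.0047 and 0.0265). Relations of the 10 genes with Bach1, the microglial score, Gfap and an oligodendrocyte score were computed within each genotype and tissue, 160 in all. By Pearson 10 passed an adjusted p of 0.05 and by Spearman 3, all of them in hippocampal APP/Tau libraries. With Gfap r was 0.973 for Hmox1, 0.920 for Fth1 and 0.883 for Gclm. With the oligodendrocyte score it was 0.956 for Fth1, 0.942 for Gclm, 0.907 for Hmox1 and 0.860 for Slc7a11. With Bach1 0 relations passed, and Hmox1 was nearest (r = 0.871, adjusted p = 0.0508 by exact permutation). On residuals from the naive and trained means 4 relations with Bach1 passed by exact permutation, those of Fth1 (r = 0.866, adjusted p = 0.0216), Hmox1 (r = 0.855, adjusted p = 0.0353), Slc7a11 (r = 0.836) and Gclm (r = 0.809, adjusted p = 0.0435 for both). The measures were themselves related, Gfap and the microglial score with r = 0.981 and Bach1 and the score with r = 0.786. In hippocampal controls, r with the oligodendrocyte score was 0.690 for Fth1, -0.306 for Gclm, -0.419 for Hmox1 and -0.726 for Slc7a11. In the same order it was 0.833, 0.386, -0.055 and -0.385 in BLA APP/Tau libraries. In BLA controls it was 0.151, 0.087, 0.354 and 0.302. None of these passed.

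Without the 2 libraries farthest from the median of each measure all 10 relations kept r above 0.5 but 0 passed (Hmox1 with the score r = 0.957, adjusted p = 0.0635, exact permutation, n = 7). Over the 6 APP/Tau libraries with a score under 6, Hmox1 had r = 0.870 with the microglial score and r = 0.03 with Bach1. With the score and Bach1 in turn, r was -0.59 and 0.81 for Gclc and 0.01 and 0.37 for Slc7a11. For Fth1 it was 0.64 and 0.46, for Ftl1 0.54 and -0.20, for Gclm 0.48 and 0.39 and for Srxn1 0.69 and -0.40. Slc40a1, Nqo1 and Txnrd1 had negative r with both. These are given as values because 6 libraries are too few for a single relation to pass after adjustment over 40. In BLA APP/Tau libraries Hmox1 had r = 0.750 with the score, 0.703 with Bach1 and 0.809 with Gfap (adjusted p = 0.105, 0.149 and 0.0641, exact permutation, n = 9).

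Ftl1 varied among libraries of a group, and its values are given by the library number in the sample descriptions, which run alike in both tissues; whether a number marks the same mouse is not stated. Libraries numbered 15 (APP/Tau naive replicate 4) had 12.9 CPM in the hippocampus and 4.34 CPM in the BLA, and those numbered 1 (APP/Tau trained replicate 1) had 166 CPM in the hippocampus and 139 CPM in the BLA. These were the lowest and the highest of each tissue. Other numbers differed more between tissues, with 105.9 CPM in the hippocampus and 56.9 CPM in the BLA for number 18 (APP/Tau naive replicate 5) and 92.9 CPM in the hippocampus and 58.3 CPM in the BLA for number 17 (APP/Tau trained replicate 3). Controls fell into separate levels: naive ones numbered 4, 9 and 12 had 77.2, 73.3 and 74.1 CPM in the hippocampus and 73.6, 70.9 and 82.3 CPM in the BLA, whereas naive ones numbered 3 and 8 had 47.2 and 41.4 CPM in the hippocampus and 46.4 and 37.6 CPM in the BLA. A trained control, number 16 (Control trained replicate 6), had 74.6 CPM in the hippocampus, against 41.1 to 43.9 CPM in the other trained controls. Number 16 has no BLA library. Ftl1 has near-identical processed copies, Ftl1-ps1 and Ftl1-ps2, and counts can pass between them. In the hippocampus library 15 had 1207 counts of Ftl1, 48 of Ftl1-ps1 and 122 of Ftl1-ps2, and library 1 had 20465, 1257 and 18. In the BLA library 15 had 263, 131 and 159 counts, and library 1 had 8271, 1324 and 100. What part shared reads have in the Ftl1 differences was not tested. How reads shared between these copies were assigned is not given in the sources used here, so the Ftl1 levels are uncertain.

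**Figure D4:**
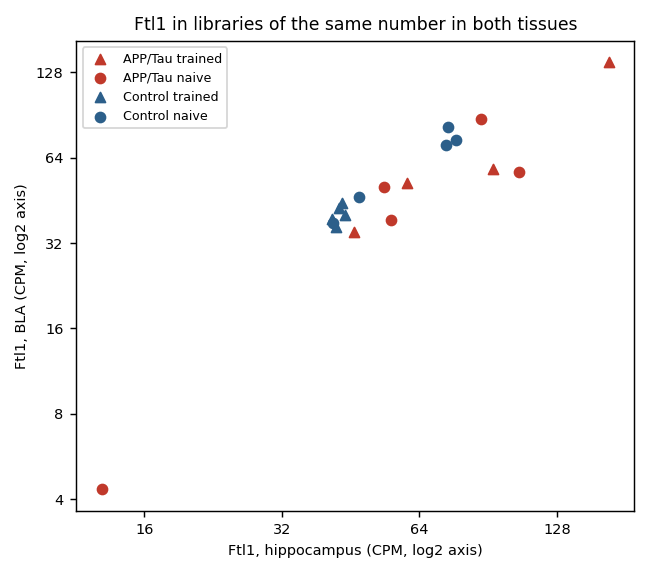
Ftl1 level in the hippocampus (x axis, CPM, log2 axis) against the BLA (y axis, CPM, log2 axis) for the 19 library numbers present in both tissues; red is APP/Tau, blue Control, triangles trained, circles naive. The lowest point is library 15 at 12.9 and 4.34 CPM, the highest library 1 at 166 and 139 CPM, and 3 naive controls lie apart from the other controls shown. Library 16, a trained control at 74.6 CPM in the hippocampus, has no BLA library and is not shown.

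Among the regulators of these targets, Nfe2l2 (NRF2) was 15.6 to 38.0 CPM in APP/Tau hippocampi (median 18.7) and 11.2 to 17.4 CPM in controls (median 14.3), a log2 fold change of 0.71 ± 0.15 (edgeR adjusted p = 0.00555). Of the 8 tested regulators other than Bach1, 3 were called higher in the hippocampus (Nfe2l2, the related factor Nfe2l3 at 0.66 ± 0.17 and the small Maf gene Maff at 1.07 ± 0.28) and none lower. In the BLA Nfe2l3 was higher (0.82 ± 0.19), none was lower, and Nfe2l2 was at 0.54 ± 0.13 (edgeR adjusted p = 0.0530). With Bach1 included, their median was 0.06 in the hippocampus and 0.11 in the BLA.

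Other NRF2 target enzymes were called higher for 10 of 22 genes in the hippocampus and 2 of 22 in the BLA, none lower, with medians of 0.17 and 0.07. They included the peroxidase gene Prdx1 (0.39 ± 0.08 in the hippocampus), the glutathione transferase gene Gstm1 (0.37 ± 0.07 in the hippocampus and 0.36 ± 0.07 in the BLA) and the aldehyde oxidase gene Aox1 (0.60 ± 0.12 and 0.61 ± 0.13). Of 24 listed glutathione, thioredoxin and peroxide genes 6 were higher in the hippocampus and 1 in the BLA, none lower, with medians of 0.16 and 0.00. Slc3a2, the heavy chain that partners Slc7a11, was at 0.29 ± 0.05 and Prdx6, a peroxiredoxin, at 0.88 ± 0.19 in the hippocampus. Txnip, which binds and inhibits thioredoxin and so acts against the others, was at 0.56 ± 0.13 in the hippocampus and 0.53 ± 0.10 in the BLA.

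Of the genes of heme synthesis and handling, 2 of 19 were higher in the hippocampus, the macrophage hemoglobin receptor Cd163 (0.70 ± 0.19) and the transporter Flvcr2 (0.35 ± 0.11), and 0 of 19 in the BLA by edgeR (2 at an unadjusted p under 0.05), with medians of 0.04 and 0.01. Cd163 is also a marker of perivascular macrophages. Of the iron genes 7 of 20 were higher in the hippocampus and 1 of 19 in the BLA, none lower, with medians of 0.10 in both. Slc11a1, a metal transporter of phagocytes, was at 2.16 ± 0.31 in the hippocampus and 1.14 ± 0.27 in the BLA. Lcn2, which binds iron carriers of bacteria, was at 3.59 ± 0.77 and the metal importer gene Slc39a14 at 0.21 ± 0.05 in the hippocampus. These lists read against 11.1% of all genes called in the hippocampus and 1.18% in the BLA.

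The genes most like each target, by correlation of log2 CPM after group means were removed, differed between the targets and between the tissues. Over 20 hippocampal libraries and 13997 candidate genes, Hmox1 was most like Ccdc190 (r = 0.98), S1pr3 (r = 0.98) and Itgb5 (r = 0.97), and Fth1 most like Slc48a1, a heme transporter gene (r = 0.96). Slc40a1 was most like Vamp8 (r = 0.93), Gclm most like Pdcl (r = 0.92), Txnrd1 most like Uap1l1 (r = 0.92), Slc7a11 most like Col1a2 (r = 0.88), Nqo1 most like Gbe1 (r = 0.86), Srxn1 most like Nrsn1 (r = 0.81) and Gclc most like Pex3 (r = 0.76). Ftl1 was most like its own copy Ftl1-ps1 in both tissues (r = 0.98 and 0.90). Over 19 BLA libraries Hmox1 was most like Ubash3b (r = 0.79) and Fth1 most like Micos10 (r = 0.95). Bach1 was most like Stat6 in the hippocampus (r = 0.94) and Cst7 in the BLA (r = 0.84).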

How the data were processed

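Bulk RNA-seq of the input fraction gave 2 tables of raw read counts per gene, as deposited by the authors, 1 for each tissue. Reads were trimmed with Trimmomatic 0.39 and the build was mm39, per the submitters' processing notes, and libraries were poly(A) selected, per the labels' protocols. Which aligner and counter were used, and with what strand setting, is not given in the sources used here. Promoter windows are of build GRCm38.p6, used for sequence only.

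Counts were analysed with edgeR 4.0.16 in R 4.3.3: genes passing filterByExpr (minimum count 10, total 15), TMM scaling, quasi-likelihood F tests with group means for genotype and training fitted per tissue, 2-sided, adjusted by Benjamini and Hochberg over all tested genes, called at 0.05. Levels are CPM on TMM-scaled library sizes, with a prior count of 2 on the log2 scale. The standard error of an effect was its size divided by the root of its F statistic, and 95% intervals span 1.96 of these to each side. Scores are mean log2 CPM of marker lists. Correlations were tested by exact permutation at n = 9 and by 100000 permutations in controls (n = 10 and 11), adjusted over the 160 relations. The permutations were computed with numpy 2.4.6, and the ranks came from scipy 1.17.1. Scripts were tested on simulated data.

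The 10 genes, the lists and the tests were chosen with earlier results of these data known. Named list genes are the first 3 by p among those called, and the likeness rule took the 3 highest correlations. Alternatives were DESeq2 1.42.0, limma-voom (limma 3.58.1), other scalings and filters, covariates, the replicate number as a block, and leaving out libraries. Slopes within 1 genotype, correlations over libraries with low scores, and the fit without APP/Tau libraries of high microglial score were chosen after seeing the data.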

Additional observations from a re-analysis of the deposited data

Results flagged for a closer look

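In 8 of 88 sets of 1 gene in 1 group, the highest or lowest library lay far from the rest of its group, and chance gives about 1 in 20. In 3 of them the library was hippocampal APP/Tau naive replicate 5, the one with the highest microglial score: Hmox1 was at 26.5 CPM (others 7.78 to 10.98), Fth1 at 2920 CPM (others 1921 to 2144) and Gclm at 49.8 CPM (others 34.4 to 38.3). Ftl1 was at 74.6 CPM in hippocampal Control trained replicate 6 (others 41.1 to 43.9) and at 4.34 CPM in BLA APP/Tau naive replicate 4 (others 38.6 to 87.4). In BLA Control naive replicate 1, Slc7a11 was at 29.9 CPM (others 45.1 to 53.1) and Gclm at 21.6 CPM (others 30.3 to 32.6), and 18S RNA took 0.893% of that library's counts, against a BLA median of 0.276%. Nqo1 was at 2.92 CPM in BLA Control naive replicate 3 (others 2.03 to 2.18).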

How the results depend on the processing

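Numbers here are how many of the 10 genes were called. Where the number over all genes is not beside such a count, the count has no background. A change in it is then not shown to be particular to these genes. For the genotype effect averaged over training in the hippocampus it was 0 with the microglial score as a covariate, 3 without the libraries rich in 18S RNA and 1 without the APP/Tau libraries with a score over 6; DESeq2, limma-voom, RLE scaling, a minimum mean of 1 CPM and the replicate block each gave 7, and no filter gave 5. Over all genes DESeq2 called 4242, the replicate block 4145 and the fit without 18S-rich libraries 1126, against 2854. In hippocampi of naive mice 1 was called by DESeq2 and 1 without the libraries with a score over 6. In trained mice it was 4 by DESeq2, 3 with the replicate block, and 0 with the microglial covariate and 0 without 18S-rich libraries. The hippocampal slope on Bach1 gave 2 with the replicate block, and both slopes gave 0 in controls only. In the BLA the averaged effect gave 2 by DESeq2 and 0 with the microglial covariate; over all genes DESeq2 called 1183, limma-voom 64 and the replicate block 44, against 273. The BLA effect in trained mice gave 1 by DESeq2, 1 without a filter and 1 with the replicate block, and the slope on Bach1 1 by DESeq2. Of 160 correlations 0 passed without the 2 farthest libraries, 20 on residuals from training means (18 in hippocampal and 2 in BLA APP/Tau libraries) and 0 of 40 over the 6 libraries of low score, too few for a single relation to pass, against 10.

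Directions reversed in the hippocampus with the microglial covariate for Fth1 (-0.0877), Ftl1 (-0.67), Slc40a1 (-0.0553) and Txnrd1 (-0.14), and without the libraries with a score over 6 for Ftl1 (-0.0588) and Txnrd1 (-0.0472). In the BLA they reversed for Ftl1 by limma-voom (-0.11), with the microglial (-0.65) and striatal (-0.00704) covariates and without APP/Tau trained replicate 1 (-0.0597, range over libraries left out -0.0597 to 0.362), and with the microglial covariate for Slc40a1 (-0.0689) and Nqo1 (-0.20). The cause was not tested.

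Leaving out 1 library at a time gave 2 to 8 called genes in the hippocampus (8 without APP/Tau trained replicate 2), 0 to 1 in naive and 1 to 4 in trained mice, 1 to 7 for the slope on Bach1 and 3 to 8 for that on the microglial score. In the BLA it gave 1 to 2 (Slc7a11 joined without Control trained replicate 2, APP/Tau trained replicate 2 or APP/Tau trained replicate 4), 0 to 1 in trained mice and 0 to 1 for the slope on the score. Training, interaction and tissue difference stayed at 0. The numbers over all genes in these fits are not given here, so these counts have no background beside them. Equal replicate numbers did not pair the samples: deviations of same-numbered libraries correlated at 0.07 on average in the hippocampus and -0.04 in the BLA. Library numbers, shared between tissues, correlated at 0.27, with 15 of 19 libraries matching their own number best, and a replicate block on them gave 0 for the tissue difference. DESeq2 and limma-voom were not run for the tissue difference.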
